A study of Mus musculus with 12 samples.

Results

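Heart-only CTCF sites are the places where the wild-type heart peak list holds a CTCF region and the wild-type brain and lung lists hold none. The regions of all 6 deposited peak lists were merged wherever they overlapped by at least 1 bp, and each merged site was marked with the lists that covered it. Of 56248 merged sites, 20915 carried the wild-type heart list, and 330 of these carried neither the wild-type brain nor the wild-type lung list. The 330 sites made up 1.58% of the wild-type heart sites and 0.587% of all merged sites. The other 20585 wild-type heart sites fell into 160 shared with brain only, 860 shared with lung only and 19565 present in all 3 organs.

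CTCF ChIP-seq was performed on brain, heart and lung of C57BL/6 mouse embryos at E18.5, late in gestation. The embryos were either wild type (Ctcf+/+) or homozygous for R567W (CtcfR567W/R567W), a germline change in Ctcf made by CRISPR/Cas9 that every cell of the mutant embryo carries. Each organ and genotype was represented by 1 ChIP library and 1 input library, and each received spike-in chromatin of HEK293T, a line of human embryonic kidney cells. The study asked how binding of the mutant protein to chromatin differs from that of the wild-type protein. The heart-only sites bear on how sites listed in a single wild-type organ fared. Whole organs were used, so the libraries mix the cell types of each organ, and how many embryos went into a library was not given in the sources used here.

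CTCF is a zinc-finger protein that folds chromosomes into loops and domains by halting the cohesin ring at its binding sites. Its central zinc fingers read a core motif, and at some sites the last fingers also contact an upstream motif. Most CTCF sites are occupied in many cell types, and a minority differ between tissues. In heart muscle the main cell is the cardiomyocyte, whose sarcomeres are built from actin, myosin and Z-disc proteins.

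The sequences under selected heart-only sites are shown first, read from GRCm38 and written 5′ to 3′ on the strand of the core motif, with the core motif in capitals and the 30 bases 5′ of it in lower case. The first 3 were among the core-bearing sites listed again in mutant heart.
Ldb3 intron (chr14:34574251-34574299, + strand): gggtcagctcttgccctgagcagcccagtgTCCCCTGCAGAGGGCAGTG
Prkaca intron (chr8:83981086-83981134, - strand): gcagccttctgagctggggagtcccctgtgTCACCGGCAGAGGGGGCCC
Rbm20 intron (chr19:53712513-53712561, - strand): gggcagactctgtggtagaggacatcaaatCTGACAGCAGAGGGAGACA
The next 3 were the core-bearing sites among the 6 of highest fold enrichment that no mutant list held.
Rybp-ps (chr13:66008169-66008217, + strand): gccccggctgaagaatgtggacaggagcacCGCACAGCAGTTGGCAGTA
Asph intron (chr4:9653260-9653308, - strand): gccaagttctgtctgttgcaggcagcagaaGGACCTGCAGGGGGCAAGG
near Gata5 (chr2:180359210-180359258, + strand): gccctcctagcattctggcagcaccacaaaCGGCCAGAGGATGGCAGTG
A further 5 lay within 10 kb of genes of cardiac muscle.
upstream of Ldb3 (chr14:34596036-34596084, - strand): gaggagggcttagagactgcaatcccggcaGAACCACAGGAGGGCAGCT
upstream of Myh7b (chr2:155603832-155603880, + strand): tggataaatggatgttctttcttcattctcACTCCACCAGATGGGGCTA
Csrp3 intron (chr7:48846978-48847026, - strand): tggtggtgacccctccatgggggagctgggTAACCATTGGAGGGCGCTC
Gata4 promoter (chr14:63245402-63245450, - strand): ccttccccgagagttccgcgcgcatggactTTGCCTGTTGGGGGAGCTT
Cacna1c exon (chr6:118606182-118606230, + strand): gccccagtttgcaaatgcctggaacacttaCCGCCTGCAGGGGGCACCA
A pair of sites without a core motif are given as the 101 bases centred on the summit, on the forward strand, with matches to the TEAD motif ACATTCC or the GATA motif AGATAA on either strand in capitals. Named sites without a core motif that held neither match there, such as those at Inpp5a, Ergic1, Actc1 and Tead1, are not printed. Of all heart-only sites without a core motif, 5.91% held the TEAD motif and 6.99% the GATA motif within 100 bp of the summit.
Edn1 intron (chr13:42302701-42302801, + strand): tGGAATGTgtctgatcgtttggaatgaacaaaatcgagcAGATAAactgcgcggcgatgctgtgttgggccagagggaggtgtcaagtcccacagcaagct
Myl12a promoter, near Myom1 (chr17:70998722-70998822, + strand): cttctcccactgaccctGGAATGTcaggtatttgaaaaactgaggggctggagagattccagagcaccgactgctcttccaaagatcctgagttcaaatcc

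Heart-only sites were weak peaks. The sites were chosen by the presence of a peak in the wild-type heart list and its absence from the wild-type brain and lung lists, so strength in wild-type heart is described here without a test. Fold enrichment, the authors' ratio of reads at the summit to the local background, had a median of 4.02 at the 330 sites (range 2.77 to 19.01) and of 9.87 at the other wild-type heart sites. The summit pileup, the number of reads stacked at the summit, had a median of 11 reads (8 to 51) against 29 reads, and 8 reads was the lowest pileup in the list. The median −log10 q was 3.38 against 20.4, and 227 sites (68.8%) lay below a −log10 q of 5 against 6.10% of the others. By fold enrichment, 295 of the 330 fell in the lowest quintile of the wild-type heart list, 28 in the next, and 5, 1 and 1 in the 3 above. Only 2 sites reached the median pileup of the other heart sites, at 51 reads in the pseudogene Rybp-ps and 31 reads in Ldb3.

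**Figure D1:**
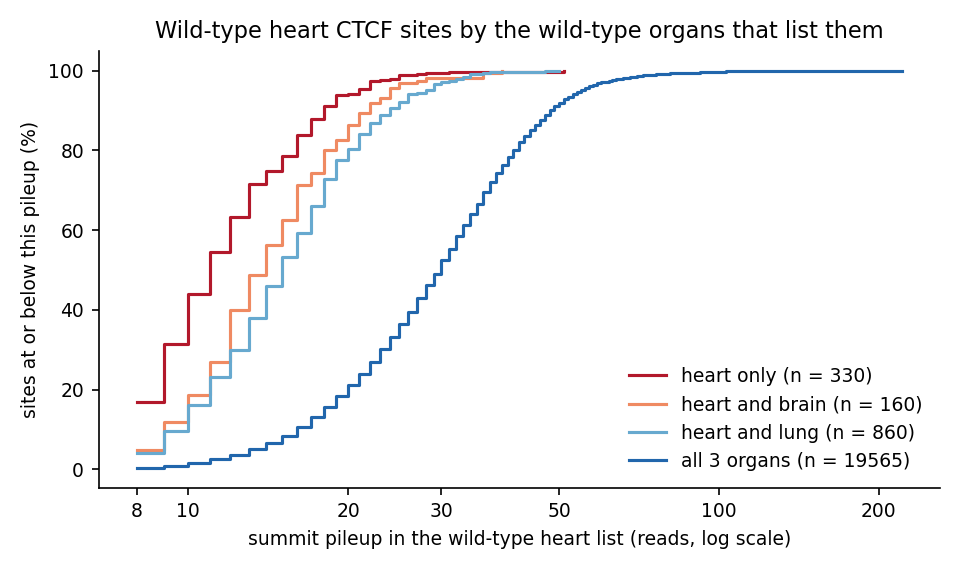
Cumulative share of wild-type heart sites (vertical axis, %) by summit pileup in the wild-type heart list (horizontal axis, reads, log scale), with 1 line for each combination of wild-type organs that listed the site. The heart-only line lies to the left of the other lines, with a median of 11 reads against 30 reads at sites of all 3 organs.

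The edge of the rule was close for some sites. A wild-type brain or lung region lay within 200 bp of 10 heart-only sites, within 1000 bp of 46 (13.9%) and within 10000 bp of 177 (53.6%), and the median distance was 8775 bp. Just inside the rule were sites at 1700081N11Rik, Pnrc1 and 7693 bp from Malat1, whose nearest wild-type lung regions were 39, 41 and 44 bp away. Just outside were sites at Zfp251, Asic4 and Klf16, which overlapped a brain or lung region by 12, 16 and 36 bp. The weakest brain or lung peaks that placed a site outside were wild-type lung peaks at Ppp1r3e and Wdr26, which overlapped the heart region with −log10 q of 1.45 and 1.49, and at Slirp, with a −log10 q of 1.49. The lung peak at Slirp lay 7 bp from the heart region and was joined to it through a region of another list, as at 8 of the other heart sites in all. A site missing from a list was below the peak caller's threshold there, which does not show that it was unbound.

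The lists were of unequal length and background. They held 36034, 21059 and 44386 regions in wild-type brain, heart and lung and 38390, 11515 and 32498 in mutant brain, heart and lung, from libraries of 7.14 to 9.27 reads per kb. Local background stood highest for wild-type lung, with a median at 2.38 times the lowest value of that list, against 1.04 to 1.18 times in the other 5 lists. With the mutant lung list in place of the wild-type lung list, the number of heart-only sites was 585 in place of 330. With the wild-type brain and lung lists cut to the length of the heart list, it was 2480, of which mutant heart listed 10.1% and mutant brain or lung listed 71.9%. When sites in the mutant brain or mutant lung list were also left out, 243 of the 330 remained.

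Nearly all heart-only sites were missing from the mutant heart list. It held 7 of 330 (2.12%, Wilson 95% interval 1.03 to 4.31%), against 50.7% of all wild-type heart sites and 51.5% of the other wild-type heart sites. Low shares were also found at sites of heart and brain (11 of 160, 6.88%, 3.88 to 11.9%). The same held at sites of heart and lung (82 of 860, 9.53%, 7.75 to 11.7%), against 53.7% at sites of all 3 organs. The difference from the other heart sites was -49.4 percentage points (Newcombe 95% interval -50.7 to -47.1). Weaker wild-type heart peaks were missing from the mutant list more often, so the comparison was repeated within quintiles of wild-type fold enrichment. In the lowest quintile, 5 of 295 heart-only sites (1.69%) and 17.7% of the other sites were listed in mutant heart, a difference of -16.0 points (-17.6 to -13.5). In the next quintile, the numbers were 1 of 28 (3.57%) and 33.9%, a difference of -30.3 points (-33.6 to -16.1). Among sites of 15 to 20 reads, mutant heart listed 3 of 64 heart-only sites (4.69%, 1.61 to 12.9%) and 584 of 2865 sites of all 3 organs (20.4%, 18.9 to 21.9%). Sites of heart and brain had 2 of 48 there (4.17%, 1.15 to 14.0%) and sites of heart and lung 35 of 296 (11.8%, 8.63 to 16.0%), both with intervals that overlapped the heart-only interval, so at this pileup a low share was not particular to heart-only sites. Standardised over deciles of fold enrichment or of pileup, the difference was smaller, at -14.7 or -11.2 points. These intervals cover counting error only, and with 1 library for each genotype no test between genotypes was possible.

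The 7 sites found again in mutant heart lay on chromosomes 5, 8, 14, 15 and 19. Those at Rbm20, Pgm5 and near Malat1 were all on chromosome 19, which held 15 heart-only sites. Whether the 7 sites were unevenly spread was not tested. The intron of Ldb3, which encodes a Z-disc protein of striated muscle, had 31 reads in wild-type heart, 35 in mutant heart and 23 in mutant lung. An intron of Prkaca, the catalytic subunit of protein kinase A, had 28 reads in wild-type and 19 in mutant heart. An intron of Rbm20, a splicing regulator of titin, had 16 and 11 reads, as did an intergenic site 2318 bp from Malat1, a nuclear long non-coding RNA. The remaining 3 were named after their values were seen. An intron of Abra, a gene expressed in striated muscle, had 10 reads in wild-type heart and 16, 25 and 26 in mutant heart, brain and lung. The promoter of Pgm5, a cytoskeletal relative of phosphoglucomutase, had 12 reads in both hearts and 23 in mutant lung. A site 27089 bp from Gm42489 had 16 reads in wild-type heart, 14 in mutant heart and 13 in mutant brain. In reads, Ldb3 and Abra were higher in mutant heart and the other 5 lower or level, but the fold enrichment at Ldb3 was 11.7 in wild-type and 10.7 in mutant heart. Relative to the background of each list, the median log2 ratio of pileup was -0.34 (range -0.71 to 0.53) at these 7 sites and -0.25 at the other heart sites present in both lists. Peaks lost from the mutant list give no ratio, and the lists carry no spike-in factor.

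Heart-only sites appeared more often in the mutant lists of the other organs than in mutant heart. Wild-type heart sites as a whole did so too, with 50.7% in mutant heart and higher shares in mutant brain and mutant lung. Mutant brain listed 63 (19.1%, Wilson 95% interval 15.2 to 23.7%), against 90.2% of all wild-type heart sites. Mutant lung listed 49 (14.8%, 11.4 to 19.1%), against 90.5%. Together, brain or lung of the mutant listed 87 of 330 (26.4%, 21.9 to 31.4%), against 94.5%, and both listed 25. By the rule, every other wild-type heart site had a wild-type brain or lung peak and no heart-only site had one. The gaps in mutant brain and lung, also within a range of peak strength, are therefore partly set by the choice of sites. Of the 330 sites, 240 (72.7%, 67.7 to 77.3%) were in no mutant list, against 4.36% of the other wild-type heart sites, 37 were in mutant brain alone, 22 in mutant lung alone, 24 in both of these without heart, and 3 in mutant heart alone. In the lowest quintile of fold enrichment, mutant brain or lung listed 25.8% of heart-only and 88.0% of the other heart sites. In those lists, too, they were weak peaks: the median pileup was 17 reads (8 to 59) at the 63 sites in mutant brain and 20 reads (7 to 44) at the 49 in mutant lung, against 73 and 86 reads at the other wild-type heart sites listed there. Whether these 87 sites differed from wild-type brain and lung through the genotype or through the library cannot be told apart.

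Brain-only and lung-only sites, defined in the same way from their own wild-type lists, were found again more often in the mutant of their own organ. The mutant list of the same organ held 2.12% of heart-only, 51.9% of the 4710 brain-only (50.5 to 53.3%) and 29.6% of the 12163 lung-only sites (28.8 to 30.5%). The differences were -49.8 points (-51.6 to -47.2) between heart-only and brain-only sites and -27.5 points (-28.9 to -25.2) between heart-only and lung-only sites. These classes were not matched for peak strength, and the mutant heart list was the shortest of the 6.

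**Figure D2:**
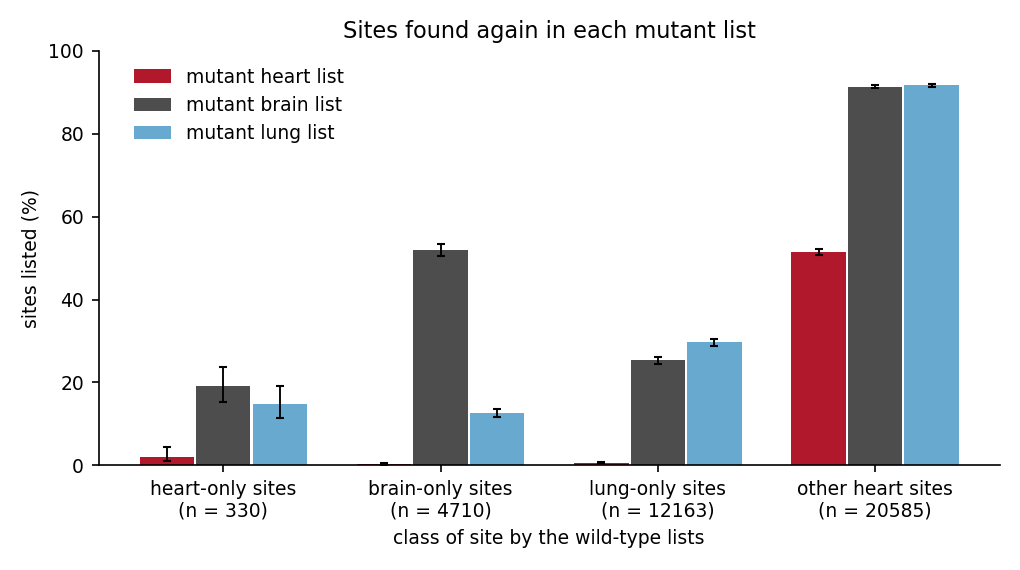
Share of sites listed (vertical axis, %) in mutant heart, mutant brain and mutant lung for 4 classes of site set by the wild-type lists (horizontal axis). Error bars are Wilson 95% intervals, and the heart-only class had 2.12% in mutant heart, 19.1% in mutant brain and 14.8% in mutant lung.

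The core CTCF motif was called at fewer heart-only sites than other heart sites. It lay within 100 bp of the summit at 144 of 330 (43.6%, Wilson 95% interval 38.4 to 49.03%), against 91.6% of all wild-type heart sites and 92.4% of the others. Windows 1100 bp from the summit held it at 6.36% of heart-only and 7.39% of other heart sites. The difference under the summit was -48.7 points (-54.0 to -43.3), and within the lowest quintile of fold enrichment it was -39.8 points (40% against 79.8%, interval -45.3 to -33.9). Standardised over deciles of fold enrichment, it was -31.9 points. The share itself depended on the limits: it was 63.1% at the 103 sites left with a −log10 q of at least 5 in the heart list, 59.7% at the 585 sites defined with the mutant lung list, and 16.4% with the motif called at p of 1e-05. Brain-only and lung-only sites held the motif at 74.2% and 71.8%, and heart-only sites were lower by -30.5 points (-35.9 to -25.0) and -28.1 points (-33.4 to -22.7). The 3 organ-only classes were not matched for peak strength in this comparison. Among sites with the motif, the score of the core motif, in bits of log2 odds, had a median of 11.9 at heart-only and 17.1 at other heart sites.

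Among heart-only sites the motif was more frequent at stronger peaks. It was found at 20.2% of the 104 sites of 8 to 9 reads, 39.5% of 76 at 10 to 11 reads, 55.2% of 67 at 12 to 14 reads, 64.1% of 64 at 15 to 20 reads and 76.5% of 17 at 21 to 30 reads. Sites of all 3 organs held it at 44.1% and 94.6% in the first and last of these ranges. Sites of heart and brain, which were few, held it at 21.1% of 19 at 8 to 9 reads and 57.4% of 47 at 12 to 14 reads, near the heart-only shares. Their shares were higher than the heart-only shares in the other ranges. These were 58.3% of 24 at 10 to 11 reads, 72.9% of 48 at 15 to 20 reads and 84.2% of 19 at 21 to 30 reads. The strongest heart-only peak, in the processed pseudogene Rybp-ps, had 51 reads and a fold enrichment of 19.01, but its core motif was weak (score 8.67) and lay 71 bp from the summit. Rybp-ps is a 681 bp copy of a transcript of Rybp, a Polycomb gene. The study kept uniquely mapped reads only, and the placing of reads at this copy was not tested. No other list held this site, and the nearest wild-type brain or lung region was 696565 bp away.

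**Figure D3:**
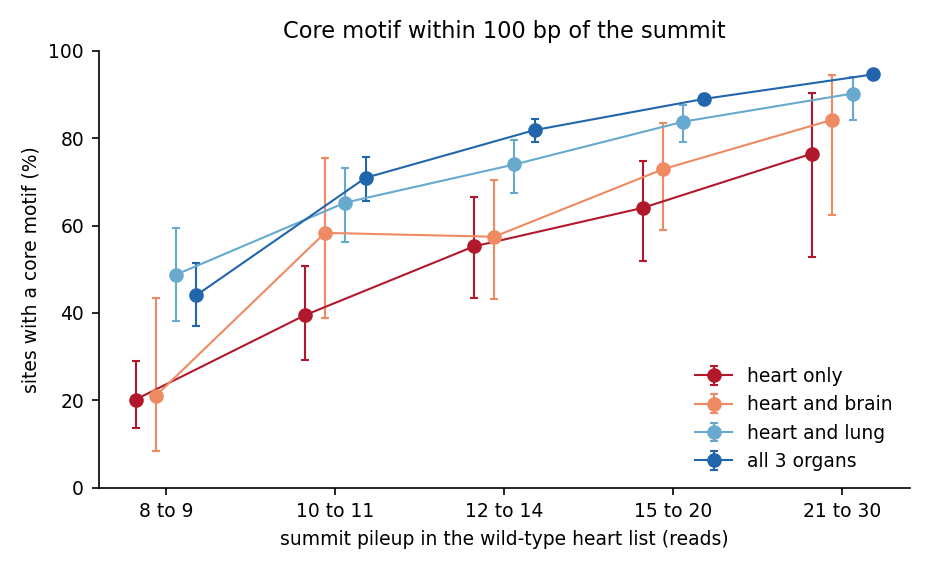
Share of sites with a core motif within 100 bp of the summit (vertical axis, %) by summit pileup in wild-type heart (horizontal axis, reads) for heart-only sites, sites of heart and brain, sites of heart and lung, and sites of all 3 organs. Error bars are Wilson 95% intervals, and the heart-only share rose from 20.2% at 8 to 9 reads to 76.5% at 21 to 30 reads.

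The other strongest sites differed in motif. An intron of Asph, which encodes the calcium-store protein junctin besides a hydroxylase, had 25 reads and a core motif 9 bp from the summit. A site in Inpp5a, an inositol phosphatase gene, also had 25 reads and no core motif. A site in Ergic1, a gene of the early secretory pathway, had 27 reads and no core motif. An intergenic site 24553 bp from Gata5, a cardiac GATA factor gene, had 24 reads and a core motif of score 16.0. None of these 4 was in any mutant list. The highest core scores were 20.2 in an intron of Gtf2f1, a general transcription factor gene, 20.2 in an exon of the non-coding gene Gm20743, and 20.01 in an exon of Cacna1c. The Gtf2f1 and Cacna1c sites were listed in both mutant brain and mutant lung but not in mutant heart. The Gm20743 site was in no mutant list.

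The upstream motif, TGCAGTNCC with at most 2 mismatches within 30 bp 5′ of the core, was called at 31 of the 144 heart-only sites with a core motif (21.5%, Wilson 95% interval 15.6 to 28.9%), against 26.9% of all wild-type heart sites with a core motif. A mirrored window 3′ of the core held it at 18.1% (12.6 to 25.1%) of the heart-only sites, close to the upstream share, and at 12.9% of the other heart sites. The site upstream of Ldb3 came within 1 mismatch of the consensus, 4 bp from the core motif. Mutant heart listed 1 of 31 heart-only sites with the upstream motif and 4 of 113 without it, a difference of -0.31 points (Newcombe 95% interval -6.16 to 12.8). Mutant brain or lung listed 5 of 31 and 36 of 113, a difference of -15.7 points (-28.5 to 2.56). Neither difference was larger than its counting error.

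Most heart-only sites lay in or at genes. A promoter site had its summit within 1 kb of an annotated start site, and 93 of 330 were promoter sites (28.2%, Wilson 95% interval 23.6 to 33.3%), against 18.4% of all wild-type heart sites. A further 145 were intronic (43.9%), 80 intergenic (24.2%) and 12 exonic (3.64%). The promoter share was 9.95 points above that of the other heart sites (5.34 to 15.1), but within the lowest quintile of fold enrichment it was 29.8% against 27.9%, a difference of 1.98 points (-3.16 to 7.60). Standardised over deciles of fold enrichment or of pileup, the difference was -3.11 or -1.07 points, so its direction depended on the adjustment for peak strength. The intergenic share was -12.4 points from that of the other heart sites (-16.8 to -7.47), and -2.77 points after standardisation over deciles of fold enrichment. More than 50% of the window was masked as repeat at 10.0% of heart-only and 4.83% of other heart sites, and at 27.0% of brain-only and 26.0% of lung-only sites.

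Promoter and distal heart-only sites differed in motif content and in the mutant lists that held them. The core motif was called at 23 of 93 promoter sites (24.7%) and 121 of 237 others (51.1%), a difference of -26.3 points (-36.2 to -14.8). The direction was not particular to heart-only sites. Promoters made up 37.6% of heart-only sites without a core motif and 16.0% of those with one. Among the other wild-type heart sites they made up 44.8% and 16.0%. Mutant brain or lung listed 42 promoter sites (45.2%) and 45 others (18.99%), a difference of 26.2 points (15.02 to 37.2). In mutant brain alone the shares were 36.6% and 12.2%, a difference of 24.3 points (14.1 to 35.1), and in mutant lung 20.4% and 12.7%, a difference of 7.77 points (-0.69 to 17.8). Split further, mutant brain or lung listed 11 of 23 promoter sites with a core motif, 31 of 70 promoter sites without one, 30 of 121 distal sites with one and 15 of 116 distal sites without one. Median pileup in wild-type heart was 11, 10, 13 and 10 reads in these classes, and median GC content was 64.2%, 63.7%, 51.2% and 48.3%. GC content thus moved with the promoter class, and its part in the difference was not tested.

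**Figure D4:**
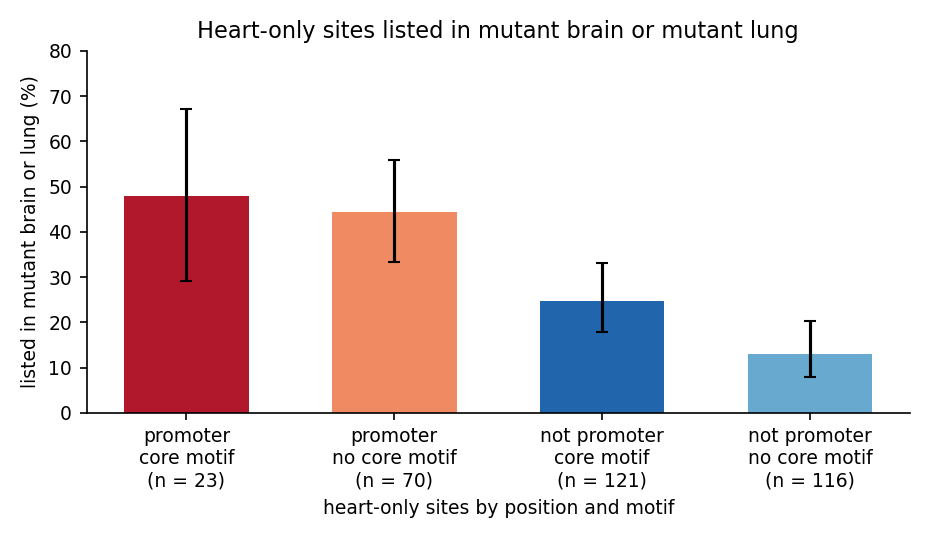
Share of heart-only sites listed in mutant brain or mutant lung (vertical axis, %), split by promoter position and core motif (horizontal axis). Bars start at 0 and error bars are Wilson 95% intervals, and the shares were 47.8%, 44.3%, 24.8% and 12.9% from left to right.

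Genes of heart muscle were then examined. Of the 330 sites, 16 (4.85%, Wilson 95% interval 3.01 to 7.73%) lay within 10 kb of a gene of 5 cardiac muscle lists, against 1.05% of all wild-type heart sites. The lists held 137 genes, of which 106 had any wild-type heart site within 10 kb and 12 had a heart-only site. The contractile list accounted for 10 sites at 6 of 35 genes (3.03%, against 0.272% of the other heart sites). The 10 sites were 15.2% of all wild-type heart sites at contractile genes. Transcription factors accounted for 2 sites (0.606% against 0.282%) and metabolic genes for 2 (0.606% against 0.0632%). Calcium handling and ion channels accounted for 1 (0.303% against 0.296%), and signalling for 1 (0.303% against 0.0777%). The interval of the difference included 0 for the transcription factor, calcium and ion channel, and signalling lists. Lists of epicardial and fibroblast, smooth muscle, erythroid, skeletal muscle, neuronal and lung epithelial genes had no heart-only site within 10 kb (0 of 330, Wilson 95% interval 0 to 1.15%). The other heart sites had 0.0243 to 0.0680% in each of these 6 lists, so 0 of 330 is near their background. Endothelial and endocardial genes had 2 (0.606%, against 0.121% of the other heart sites). Standardised over deciles of fold enrichment, the share of the other heart sites at cardiac muscle genes was 1.08%. No test was made on these lists.

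Of the contractile genes, 4 each had 2 heart-only sites. Ldb3 had the intron site of 31 reads (fold enrichment 11.7) and a site 7369 bp upstream of the gene, inside Opn4, of 22 reads and a fold enrichment of 7.14. Both held a core motif, and the intron site was 1 of the 7 found again in mutant heart. Csrp3, which encodes muscle LIM protein, had intron sites of 18 reads with a core motif (chr7:48846726-48847105) and 14 reads without one (chr7:48838502-48838789). These were the only wild-type heart sites within 10 kb of Csrp3, and no mutant list held either. Myh7b, a slow-type myosin heavy chain gene, had sites 7318 and 4632 bp upstream, of 22 reads with a core motif and 16 reads without one. The first was listed in mutant lung with 19 reads. Myl2, the ventricular regulatory myosin light chain gene, had sites of 11 and 10 reads, 8127 bp upstream and inside the gene, both without a core motif and in no mutant list.

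Single sites lay at 2 more contractile genes. Actc1, the cardiac actin gene, had a site of 9 reads 1057 bp downstream (chr2:114046044-114046307), without a core motif and in no other list. The site at Myom1, which encodes an M-band protein, lay 3861 bp upstream of that gene in the promoter of Myl12a, with 10 reads and no core motif. At these 6 genes, 4 of 10 sites held a core motif and 2 of 10 were in any mutant list. The shares over all heart-only sites were 43.6% and 27.3%.

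Sites at regulators and channels had 9 to 17 reads. Gata4, a zinc-finger factor that directs heart development, had a promoter site 181 bp from a start site (chr14:63245076-63245574) with 11 reads and a weak core motif of score 8.83. Tead1, the cardiac TEA-domain factor gene, had a site 336 bp upstream of the gene with 9 reads and no core motif, listed in mutant brain with 12 reads. Edn1, which encodes the vasoconstrictor peptide endothelin 1, had an intron site of 17 reads without a core motif, listed in mutant brain with 14 reads. Cacna1c, which encodes the pore of the cardiac L-type calcium channel, had a site in a coding exon (chr6:118606010-118606293) with 10 reads in wild-type heart, 16 in mutant brain and 19 in mutant lung. Its core motif, printed above, had a score of 20.01 and lay 4 bp from the summit. The metabolic genes were Pgam2, a muscle glycolytic enzyme gene, with 12 reads, and Acsl1, a fatty acid activating enzyme gene, with 10 reads. The endothelial adhesion genes Pecam1 and Esam had 13 and 9 reads, and both were listed in mutant lung.

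**Figure D5:**
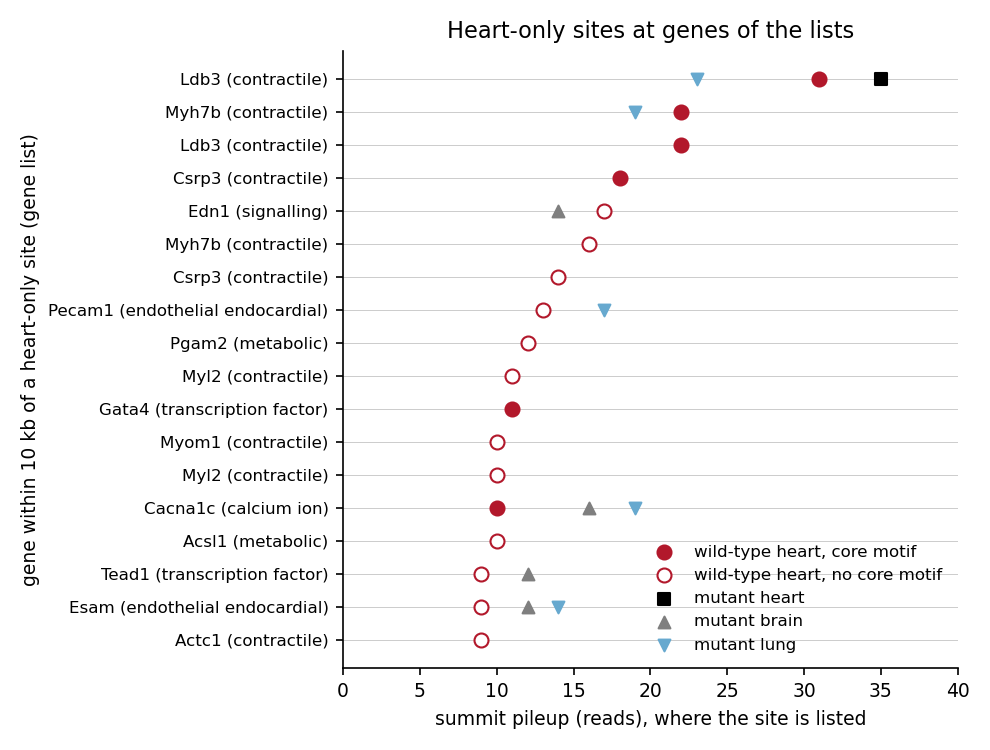
Summit pileup (horizontal axis, reads) of each heart-only site within 10 kb of a gene of the lists (vertical axis, gene and list). Filled and open circles are wild-type heart values with and without a core motif, other symbols are mutant lists where the site was listed, and the Ldb3 intron site is the only one with a mutant heart symbol.

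Several further sites lay in genes known from striated muscle, and these were picked after their positions were seen. They are examples, and the share of such genes among the 330 sites was not counted. Sites of like strength lay in genes not picked for muscle, such as the Camk2a promoter (9 reads) and introns of Lrrc4b (16 reads) and Erc2 (13 reads). Akap6, which anchors protein kinase A at the nuclear envelope of muscle cells, had 2 intron sites 5449 bp apart of 15 and 13 reads, without a core motif. An exon of Sorbs2, a Z-disc and adhesion protein gene, had 17 reads. The promoter of Pdlim3, another Z-disc gene, had 17 reads, and an intron of Trim55, a sarcomeric ubiquitin ligase gene, had 13. Besides the site near Gata5, a site 40101 bp away had 10 reads, no core motif and a TEAD motif, and lay 974 bp from the start of Mir133a-2, a muscle microRNA gene. The promoter of Lmcd1, a LIM-domain regulator that binds GATA factors, had 19 reads, a core motif and a MEF2 motif. Besides Akap6 and Csrp3, a pair of sites each lay in 5033428I22Rik, Aff1, Dip2b, Fam13b, Kalrn and Tbc1d1. Of these genes, Kalrn spans 604 kb and held 13 wild-type heart sites, Akap6 and Tbc1d1 held 7 each, and Csrp3 and Fam13b held 2 each. In all, 12 pairs of heart-only sites lay within 50 kb of each other, 24 of the 330 sites. No matching count for other heart sites is given, and clustering was not tested. By chromosome, heart-only sites were between 0.909% of wild-type heart sites on chromosome 9 and 2.25% on chromosome 12, apart from the Y chromosome, which had 1 wild-type heart site and no heart-only site.

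Motifs of other transcription factors were counted on both strands of the 201 bp around each summit, for 13 motifs. The TEAD motif ACATTCC was held by 18 of 330 heart-only sites (5.45%, Wilson 95% interval 3.48 to 8.46%) and 2.49% of other heart sites (2.29 to 2.71%), with 2.39% in their lowest quintile of fold enrichment. Windows beside the same heart-only sites held it at 1.82% (0.836 to 3.91%). Among the 18 were sites at Edn1, Pgam2, the Myl12a promoter near Myom1, and Mir133a-2. The MEF2 motif CTAAAAATA was held by 4 of 330 (1.21%, 0.472 to 3.07%) and by 0.282% of other heart sites (0.218 to 0.364%), too few for more than a description. For both motifs the interval of the difference from other heart sites lay above 0 (0.973 to 5.97 points for TEAD and 0.186 to 2.79 for MEF2), without adjustment for the 13 motifs. The GATA motif AGATAA was at 6.36% of heart-only and 6.91% of other heart sites, and the E-box CAGCTG at 14.8% and 11.9%. For these 2 and the remaining 9 motifs (NKX2-5, T-box, CArG box, AP-1, ETS, SP/KLF, NFI, YY1 and NRF1), the interval of the difference included 0. These are matches of letters in the genome and do not show that a factor was bound.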

How the data were processed

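CTCF peak lists of 6 ChIP libraries were used, and the 6 input libraries entered no comparison. Per the labels and the study's methods, the authors used Trim Galore for trimming, Bowtie2 for alignment to mouse and human genomes together and MACS2 to call peaks on the uniquely mapped reads of each library. Which input served as control was not given in the sources used here. Each deposited line gave a region, a summit offset, a score (not used), a fold enrichment (the ratio of summit pileup to local background, each plus a pseudocount of 1) and −log10 p-values and q-values. Spike-in factors do not enter a deposited list. Lines sharing a region were counted once.

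Regions were merged with bedtools 2.31.1. Pileup and background were solved from the fold enrichment and the p-value, with a whole-number pileup for 100% of regions, and depth was taken from the lowest background over the shortest region of each list. The core motif was scored with a 19-column matrix built on the 2000 strongest peaks in the wild-type brain list and called at p of 1e-04 on either strand. Genes came from the basic GENCODE release on GRCm38. Intervals are 95% Wilson or Newcombe intervals and cover counting error only. No test between genotypes was made with 1 library per group. Scripts were tested on simulated data. The sites, gene lists and motifs were chosen with earlier results of these data known. Named sites were the 6 of highest fold enrichment, the 4 highest also in mutant heart, the 4 highest in no other list, the 3 highest core scores, 3 on each side of the rule, the genes with the most sites and every site at a gene of the contractile, calcium and ion channel, transcription factor and signalling lists. Alternatives changed thresholds, overlap, list length, motif settings and gene assignment. Python 3.11.15 was used with pandas 2.3.3, pysam 0.24.0, statsmodels 0.14.6, matplotlib 3.10.9, scipy 1.17.1 and numpy 2.4.6.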

Additional observations from a re-analysis of the deposited data

Results flagged for a closer look

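Heart-only sites stood apart from brain-only and lung-only sites in which mutant list held them. The share in the mutant list of the same organ minus the share in the mutant lists of the other 2 organs was -24.2 percentage points for heart-only sites (2.12% and 26.4%), 39.3 points for brain-only sites (51.9% and 12.6%) and 4.09 points for lung-only sites (29.6% and 25.5%). The sign for heart-only sites was opposite to that of the brain-only and lung-only classes. It was not particular to heart-only sites among heart sites. Mutant heart listed 51.5% of the other wild-type heart sites, and mutant brain or lung listed 95.6% of them. This difference was not tested, since each list came from 1 library, and the mutant heart list held 11515 regions against 38390 in mutant brain and 32498 in mutant lung.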

How the results depend on the processing

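Of the values computed under alternatives, 19 stayed within the limits set for them, 18 moved beyond them and 2 changed direction. The 2 were the difference in promoter share from other heart sites, which was 9.95 points as reported, -3.11 points standardised over deciles of fold enrichment and -1.07 points over deciles of pileup, alternatives chosen after seeing the data. The number of heart-only sites was 103 with a −log10 q of at least 5 in the heart list alone, 117 with that limit in all 6 lists, 2480 with the wild-type brain and lung lists cut to the length of the heart list, and 585 with lung taken from the mutant list, an alternative chosen after seeing the data. The share listed in mutant heart was 4.85% with the limit on the heart list and 10.1% with the cut lists, and the share in mutant brain or lung was 71.9% with the cut lists. The difference from other heart sites in mutant heart was -14.7 points standardised over deciles of fold enrichment and -11.2 points over deciles of pileup. The core motif share was 16.4% at p of 1e-05, 31.8% within 50 bp of the summit, 63.1% with the limit on the heart list and 59.7% with the mutant lung list, and its difference from other heart sites was -31.9 points after standardisation. The upstream motif share was 6.25% at no more than 1 mismatch. The promoter share was 34.2% at 2 kb and 23.3% over protein-coding genes, and the share at cardiac muscle genes was 2.73% for summits inside gene bodies. The cause of these shifts was not tested. No paired analysis was possible because each group had 1 library and the labels give no replicate numbers. No library could be left out for the same reason. The lowest pileup listed, 7 to 9 reads, limits detection of weak sites.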
